A study of Homo sapiens with 6 samples.

Results

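Genes of the antioxidant programme that the transcription factor NRF2 controls were followed across 6 arrays of MDA-MB-231 cells, a long-established breast cancer line that lacks hormone receptors and has a mesenchymal look. The members are 35 named genes: NRF2 itself (NFE2L2) and its repressor KEAP1, the enzymes that make and use glutathione, the thioredoxin system, enzymes that supply NADPH, and genes of heme, iron, aldehyde and superoxide handling. Each was taken from the probe sets whose annotation names it. Of the 35, 34 were found, each on 1 probe set with no second symbol, among 18377 genes with a probe set in all. FTH1, the ferritin heavy chain, was not analysed here. The AKR1C genes each had a probe set of their own, although their sequences are so alike that signal from one may reach the probes of another.

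The cells had been transfected with pTargeT, a mammalian expression plasmid, holding GHSROS, a long noncoding RNA gene on the strand opposite the ghrelin receptor gene, or with pTargeT left empty, 3 arrays each. The submitters call the 3 per group biological replicates. Both groups were grown in DMEM/F12 with 10% Cosmic calf serum and antibiotics, and 500 ng of total RNA per culture went onto 1-colour Affymetrix Human Gene arrays. Whether the transfected cells were pools or clones, and how long after transfection they were taken, is not stated in the labels. The question the design puts to these genes is whether their RNA levels differ when the cells carry GHSROS.

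NRF2 is held in the cytoplasm by KEAP1, which hands it to a CUL3 ubiquitin ligase for destruction. Oxidants and electrophiles modify cysteines of KEAP1, NRF2 then escapes, pairs with a small MAF protein in the nucleus and binds antioxidant response elements. Its targets rebuild glutathione and thioredoxin, supply the NADPH both need, and conjugate and export reactive compounds, and many tumours keep this programme switched on. Much of NRF2's control is on its protein, which arrays of RNA do not read.

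The core of the antioxidant response element, TGACNNNGC, was searched on both strands in RefSeq promoters of build GRCh38.p14, each running from 250 bases before to 50 after a gene's start. Promoters were at hand for 27 of the 35 members, 38 windows in all, and 10 of the 38 held the core, against 13.3% of all 35116 promoters. The stretches below are the 150 bases before the start of 4 members. They are shown because the core lies there in genes whose array values went different ways. Matches that lie wholly inside a stretch are in capitals.
GSTP1 (chr11:67583662-67583811, plus strand): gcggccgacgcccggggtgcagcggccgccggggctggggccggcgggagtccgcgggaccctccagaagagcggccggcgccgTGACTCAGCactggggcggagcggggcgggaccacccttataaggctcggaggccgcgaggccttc
ME1 (chr6:83431052-83431201, minus strand): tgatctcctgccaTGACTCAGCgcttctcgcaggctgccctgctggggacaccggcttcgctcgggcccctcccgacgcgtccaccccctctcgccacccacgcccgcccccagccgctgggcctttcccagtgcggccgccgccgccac
TXNRD1 (chr12:104215629-104215778, plus strand): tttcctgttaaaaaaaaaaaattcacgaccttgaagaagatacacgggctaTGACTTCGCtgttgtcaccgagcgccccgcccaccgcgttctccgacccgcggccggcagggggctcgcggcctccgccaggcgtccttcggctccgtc
GCLM (chr1:93909431-93909580, minus strand): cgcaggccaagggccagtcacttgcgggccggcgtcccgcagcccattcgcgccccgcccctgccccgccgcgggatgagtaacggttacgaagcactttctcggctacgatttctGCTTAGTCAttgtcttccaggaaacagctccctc
In GSTP1 and ME1 the match reads TGACTCAGC on the gene's own strand, a form found in 0.561% of all promoters. It contains TGACTCA, the site of AP-1 factors, which 4.95% of all promoters hold. In TXNRD1, shown for one of its 2 windows, the core in capitals is on the gene's strand too. That window holds a second match, GCTCCGTCA on the other strand, from 8 bases before the start. It runs past the printed end and is in lower case there. The TXNRD1 window not shown holds the core as well, GCTTTGTCA on the other strand, from 102 bases before the start. ME1 also has a second match on the other strand, GCACCGTCA, after its start. In GCLM the core is on the other strand, so that the printed letters read GCTTAGTCA. The other members with the core in a window were KEAP1, GPX2, GSTA4, MGST1 and PGD. These matches describe letters only, and binding was not measured. An element outside these windows would be missed, so a member without a match may still carry one.

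The authors' RMA values are on the log2 scale, and since each probe set has its own response, a gene's place against the median of all genes is only a rough guide to its level. Array medians over all probe sets ran from 6.56 to 6.65. The line's mesenchymal markers were bright on every array, with VIM at 13.24 and 13.07 (group means), while the hormone receptor genes ESR1 and PGR lay at 5.10 and 4.58 with the empty vector. All 5 leukocyte, all 4 endothelial and 4 of 5 fibroblast markers measured were below 7.53, the median of all gene values. So were 5 of 6 luminal and hormone receptor markers, but KRT8 of that list averaged 12.09 over the 6 arrays. Of 4 epithelial adhesion markers measured only 2 were below it, and CLDN7 averaged 10.42. No probe set was annotated to GHSROS, so the transfected RNA gave no check of the labels. One array of each group, empty-vector array 1 and GHSROS array 3, stood apart from the other arrays along the main axis of variation, with 12 mitosis genes averaging 10.37 and 10.37 there and 11.15 to 11.38 on the others. On the same arrays 12 targets of the amino acid stress factor ATF4 averaged 9.54 and 9.61, against 8.637 to 9.001 on the others. Results below are given with and without this pair where it matters.

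Between the groups the antioxidant genes differed little. In limma 0 of 34 members passed an adjusted p of 0.05, with 0% of all genes called, and each member had an adjusted p of 1. The unadjusted p was under 0.05 for 0 members too, and for 1.77% of all genes, and limma with an intensity trend or with array weights called 0 as well. The log2 differences, GHSROS minus empty vector, ran from -0.23 for ABCC3 to 0.14 for GPX2, and 0 members reached a 1.5-fold change, against 0.381% of all genes. Their median was -0.029, beside 0.0019 over all genes, and their median size was 0.047, beside 0.063.

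More members lay on the lower side than on the higher, by small amounts and in a number that varied with the processing. Lower values with GHSROS were seen for 25 of 34 members and for 49.1% of all genes. The count was 26 of 34 with arrays centred on their medians, 25 without the arrays that stood apart, 20 after quantile normalization and 19 to 24 when single arrays were left out. Of all genes, 50.9% were higher with GHSROS in the deposited values, 45.8% after centring and 53.7% after quantile normalization. Most members are bright, and of genes at or above the median level only 44.2% were higher, beside 7 of the 27 members there. The members' median was below 0 in each of the 16 alternatives run, from -0.07 to -0.012. Among these, the replicate block, the intensity trend and the probe set choices could not change it. In 31 of the 34 the difference was smaller than the larger of both groups' SDs. The 95% confidence interval stayed within 1.5-fold in either direction for 28 of 34 members, and for 86.0% of all genes. The exceptions were GCLM, TXN, ABCC2, ABCC3, AKR1C2 and SOD2, and of these ABCC3 and SOD2 had intervals that reached past 2-fold.

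**Figure D1:**
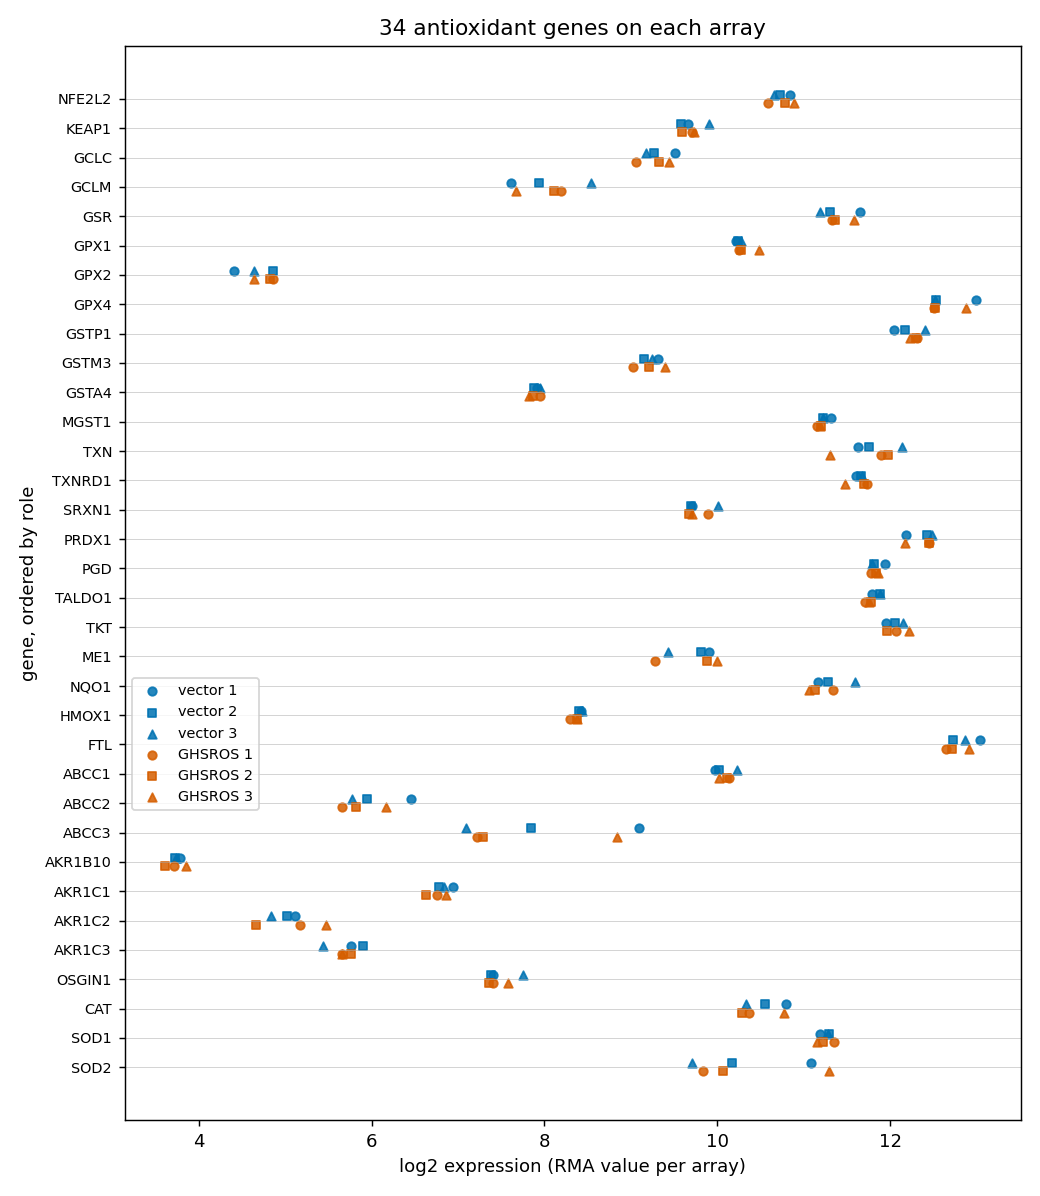
RMA log2 expression of the 34 measured genes on each array (horizontal axis), blue for empty vector and orange for GHSROS, with the marker shape giving the replicate number. The colours are mixed in all genes but MGST1, TALDO1 and HMOX1, and ABCC3 and SOD2 are spread widest.

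**Figure D2:**
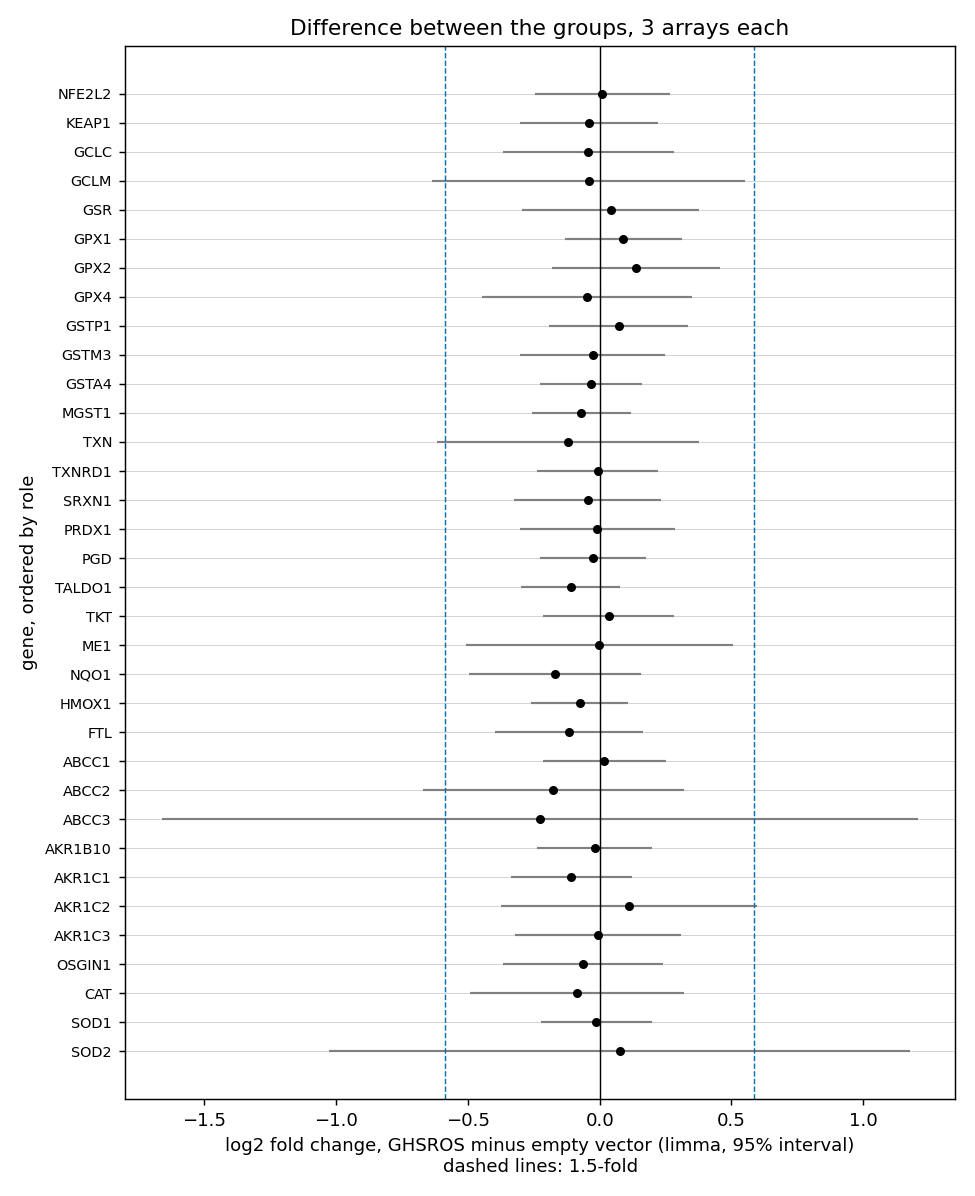
Log2 fold change of each gene, GHSROS minus empty vector, with its 95% confidence interval from limma (3 arrays per group) and dashed lines at 1.5-fold. All 34 intervals cross 0, and those of ABCC3 and SOD2 are the widest.

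NFE2L2 and KEAP1, the switch itself, were at similar levels in both groups. NFE2L2 (probe set 8056977) stood at 10.84, 10.73 and 10.66 on empty-vector arrays 1 to 3 and at 10.59, 10.78 and 10.89 on GHSROS arrays 1 to 3, so that array 3 of the GHSROS group was highest and array 1 of that group lowest. Values of each group are given in this order throughout. Its log2 difference was 0.01 (SE 0.11, 95% interval -0.25 to 0.27), and with arrays centred on their medians the sign turned. KEAP1 stood at 9.66, 9.59 and 9.91 with the empty vector and 9.71, 9.59 and 9.73 with GHSROS, with empty-vector array 3 above the rest, and differed by -0.04 (SE 0.11, interval -0.30 to 0.22).

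Glutathione is made in a rate-limiting step by a ligase of a catalytic chain, GCLC, and a modifier chain, GCLM, which raises its efficiency. Both differed by -0.04 between the groups, with SEs of 0.14 and 0.25, while the arrays that stood apart lay at opposite ends of their ranges. GCLC was at 9.52, 9.27 and 9.18 with the empty vector and 9.06, 9.33 and 9.44 with GHSROS, highest on empty-vector array 1 and GHSROS array 3. GCLM was at 7.61, 7.94 and 8.54 on the empty-vector arrays and 8.19, 8.11 and 7.67 on the GHSROS arrays, lowest on exactly those arrays and highest on empty-vector array 3, a span of 1.9-fold. Leaving out 1 array moved the GCLM difference over -0.25 to 0.21, and without both arrays that stood apart it was -0.091.

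Among the enzymes that reduce or use glutathione, 4 of 8 were higher and 4 lower with GHSROS. GPX4, the selenoenzyme that clears lipid peroxides and holds off ferroptosis, stood at 13.00, 12.53 and 12.52 with the empty vector and 12.51, 12.52 and 12.88 with GHSROS. Its values lay close together on 4 arrays and were higher on the first empty-vector array and the third GHSROS array, and the groups differed by -0.048 (SE 0.17). GSR, glutathione reductase, was likewise highest on these arrays, at 11.65 and 11.58 against 11.19 to 11.36, with a group difference of 0.042 (SE 0.14). GPX1, the cytosolic peroxidase, averaged 10.24 ± 0.028 (SD, n = 3) on empty-vector arrays and 10.33 ± 0.13 on GHSROS arrays. Its difference of 0.09 (SE 0.094) was 0.0055 without the arrays that stood apart, of which GHSROS array 3 was at 10.48. GPX2, the gastrointestinal form, lay at 4.41 to 4.86, below 5.60, the 25th percentile of gene levels, and differed by 0.14 (SE 0.13).

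GSTP1, the pi-class transferase that joins glutathione to electrophiles and carries the element printed above, stood at 12.05, 12.17 and 12.41 with the empty vector and 12.31, 12.30 and 12.23 with GHSROS, the latter all inside the range of the former, for a difference of 0.072 (SE 0.11). GSTM3, a mu-class transferase, ranged over 9.03 to 9.40 and differed by -0.026 (SE 0.12). GSTA4, which acts on the lipid aldehyde hydroxynonenal, ranged over only 7.82 to 7.95, the narrowest span of the members. MGST1, the microsomal transferase, was one of 3 members whose groups did not overlap, at 11.31, 11.22 and 11.22 against 11.16, 11.21 and 11.19. The gap is small: its difference was -0.069 (SE 0.079, interval -0.26 to 0.12), with an unadjusted p of 0.41 and an adjusted p of 1 in limma. Groups apart were seen for 8.82% of the members, all on the lower side, and for 5.51% of all genes, 2.44% on the lower side and 3.06% on the higher.

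In the thioredoxin system all 4 measured members had a group difference below 0, each well inside its SE. Quantile normalization turned the sign of TXNRD1 and PRDX1. Array weights turned the sign of all 4, as did leaving out empty-vector array 3. TXN, thioredoxin, stood at 11.63, 11.76 and 12.14 on the empty-vector arrays and 11.89, 11.97 and 11.31 on the GHSROS arrays, lowest on GHSROS array 3 and empty-vector array 1, and differed by -0.12 (SE 0.21), or -0.017 without this pair of arrays. Its reductase TXNRD1, a selenoprotein, stood at 11.60, 11.66 and 11.67 with the empty vector and 11.73, 11.70 and 11.48 with GHSROS and differed by -0.0069 (SE 0.097). PRDX1, a peroxiredoxin that thioredoxin keeps reduced, was at 12.19 on the first empty-vector array, at 12.17 on GHSROS array 3 and at 12.43 to 12.48 on the others. The 3 genes were thus lowest on the arrays where GPX4 and GSR were highest. SRXN1, sulfiredoxin, which rescues overoxidised peroxiredoxins, did not share this, at 9.71, 9.70 and 10.00 on the empty-vector arrays and 9.89, 9.67 and 9.71 on the GHSROS arrays.

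The NADPH-supplying enzymes varied little, apart from ME1. TALDO1, transaldolase of the pentose phosphate pathway, stood at 11.80, 11.89 and 11.89 with the empty vector and 11.71, 11.78 and 11.76 with GHSROS, with the groups apart. It had the smallest unadjusted p of the members, 0.21 in limma, for a difference of -0.11 (SE 0.08, adjusted p = 1). This difference ran from -0.14 to -0.09 when single arrays were left out. PGD, which makes NADPH in the oxidative part of the pathway, ranged over 11.78 to 11.95, and TKT, transketolase, over 11.95 to 12.22, with differences of -0.024 (SE 0.085) and 0.034 (SE 0.10). ME1, cytosolic malic enzyme, spanned 1.64-fold, at 9.90, 9.82 and 9.44 with the empty vector and 9.28, 9.88 and 9.99 with GHSROS. Empty-vector array 3 and GHSROS array 1 were low and the other arrays high, one low array in each group, and the mean difference was -0.0013 (SE 0.21, interval -0.51 to 0.51).

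NQO1, the quinone reductase most often used as a readout of NRF2, averaged 11.35 ± 0.22 (SD, n = 3) on empty-vector arrays and 11.18 ± 0.15 on GHSROS arrays. Its arrays read 11.17, 11.29 and 11.59 on the empty-vector arrays and 11.34, 11.13 and 11.06 on the GHSROS arrays, with empty-vector array 3 highest, and the groups overlapped. The difference of -0.17 (SE 0.14, interval -0.50 to 0.16) kept its sign in all 16 alternatives but did not pass in any. The replicate block, level filters, intensity trend and probe set choices leave the difference unchanged, so its sign could not turn there. The difference was -0.20 without the arrays that stood apart. It ran from -0.26 to -0.048 when single arrays were left out, smallest without empty-vector array 3. HMOX1, heme oxygenase, which breaks down heme to iron, carbon monoxide and biliverdin, stood at 8.43, 8.40 and 8.44 with the empty vector and 8.30, 8.37 and 8.37 with GHSROS. These groups were apart by a narrow margin, with a difference of -0.075 (SE 0.078) and a span over all arrays of 1.11-fold. FTL, the ferritin light chain that stores iron, was at 13.04, 12.73 and 12.86 on the empty-vector arrays and 12.64, 12.72 and 12.92 on the GHSROS arrays and differed by -0.11 (SE 0.12).

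ABCC3 showed the widest spread of all members, and both groups covered most of it. This exporter of glutathione and glucuronide conjugates stood at 9.10, 7.84 and 7.09 on the empty-vector arrays and at 7.22, 7.29 and 8.85 on the GHSROS arrays, 4.02-fold from lowest to highest. Empty-vector array 1 and GHSROS array 3 were high, and empty-vector array 2 lay above the remaining arrays. The group difference was -0.23 (SE 0.60, interval -1.66 to 1.21), and ran from -0.76 to 0.32 when 1 array was left out. ABCC2, a canalicular exporter of the same family, read 6.46, 5.95 and 5.77 with the empty vector and 5.66, 5.82 and 6.17 with GHSROS, again highest on that pair of arrays, while ABCC1 read 9.97, 10.02 and 10.22 on the empty-vector arrays and 10.14, 10.11 and 10.02 on the GHSROS arrays and was lowest on it. Levels from bulk RNA cannot tell fewer cells that express a gene from less RNA per cell.

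The aldo-keto reductases, which reduce reactive carbonyls and steroids and respond strongly to NRF2 in other cells, all lay below the median of all gene values. AKR1B10 was at 3.61 to 3.86 over the 6 arrays, AKR1C1 at 6.63 to 6.95, AKR1C2 at 4.66 to 5.47 and AKR1C3 at 5.43 to 5.90. Differences of dim probe sets can be compressed in such values. AKR1C1 differed by -0.11 (SE 0.097), with the groups overlapping. AKR1C2, its close copy, differed by 0.11 (SE 0.20), a value that rested on GHSROS array 3 at 5.47 and became -0.016 without that array and empty-vector array 1. AKR1C3 and AKR1B10 differed by -0.0066 (SE 0.13) and -0.019 (SE 0.093). OSGIN1, a growth inhibitor induced by oxidised lipids, read 7.40, 7.38 and 7.75 with the empty vector and 7.40, 7.36 and 7.58 with GHSROS and differed by -0.062 (SE 0.13).

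Of the enzymes that remove superoxide and peroxide, SOD2 spread over the arrays more widely than any member but ABCC3. SOD2, the mitochondrial manganese enzyme, which NF-kB also induces, stood at 11.09, 10.17 and 9.71 on the empty-vector arrays and 9.84, 10.07 and 11.29 on the GHSROS arrays, 2.98-fold from lowest to highest, with empty-vector array 1 and GHSROS array 3 above every other array. The groups differed by 0.076 (SE 0.47, interval -1.03 to 1.18), and by 0.012 without these arrays. CAT, peroxisomal catalase, had the same arrays on top, at 10.80, 10.56 and 10.33 with the empty vector and 10.37, 10.29 and 10.77 with GHSROS, and a difference of -0.085 (SE 0.17). SOD1, the cytosolic copper-zinc enzyme, ranged only over 11.16 to 11.35 and was lowest on them.

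**Figure D3:**
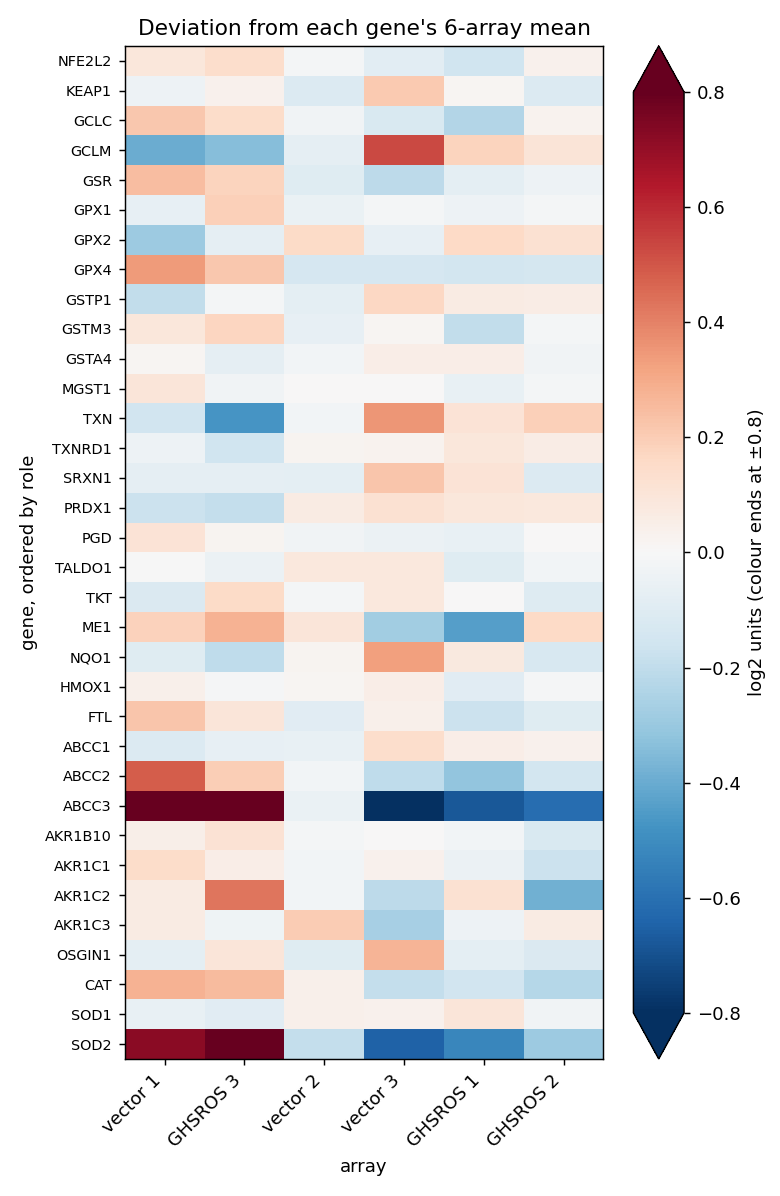
Deviation of each array from the gene's mean over 6 arrays, in log2 units, with the arrays that stood apart in the first columns and colours ending at 0.8. ABCC3 and SOD2 are high on both of those arrays, and GCLM, TXN and PRDX1 low.

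Empty-vector array 1 and GHSROS array 3 were the highest pair of the 6 arrays for 14 of 34 members, against 18.9% of all genes, and the lowest pair for 7, against 20.3%. This way of counting was chosen with the arrays' earlier results known and is given as a description. The 14 were NFE2L2, GCLC, GSR, GPX4, GSTM3, PGD, ME1, FTL, ABCC2, ABCC3, AKR1B10, AKR1C1, CAT and SOD2. The 7 were GCLM, GPX2, TXN, TXNRD1, PRDX1, ABCC1 and SOD1. Targets of NRF2 thus lay on both sides, GCLC and GSR on one and GCLM, TXN and TXNRD1 on the other, and NQO1, HMOX1 and SRXN1 were on neither. ME1 and GCLM, which both carry the core in their promoters, were on opposite sides. They were printed above because their values went different ways, so their opposite sides follow from that choice. The mitosis genes were low and the ATF4 targets high on the same arrays, as given above, and their part in these values was not tested. A span of at least 2-fold over the arrays was seen for 5.88% of members and 5.57% of all genes, and one of at least 1.5-fold for 20.6% and 21.7%.

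**Figure D4:**
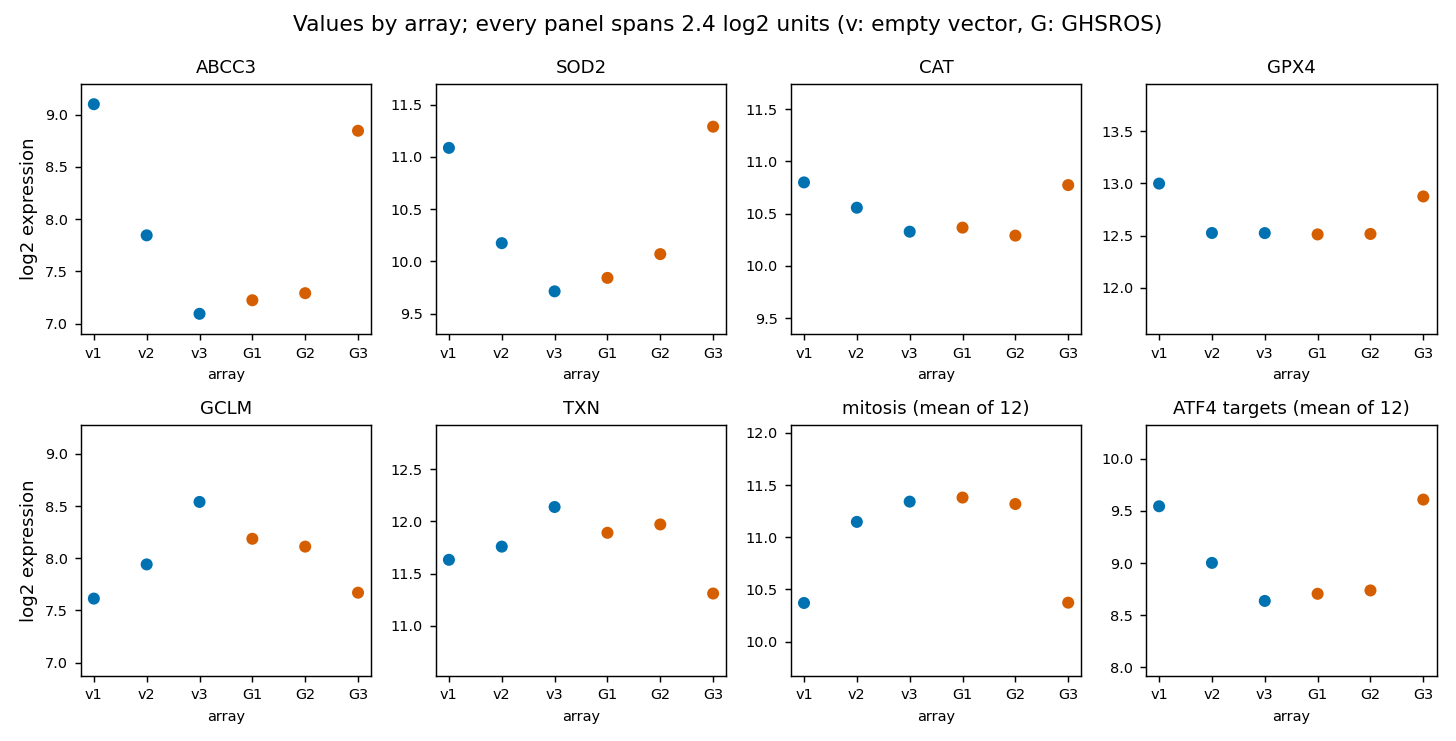
Log2 expression on each array of ABCC3, SOD2, CAT, GPX4, GCLM and TXN, and the means of 12 mitosis genes and 12 ATF4 targets, every vertical axis spanning the same number of log2 units. ABCC3, SOD2, CAT and GPX4 are high on v1 and G3, where the ATF4 targets are high and mitosis genes low, and GCLM and TXN are low there.

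A further 79 genes of the pathway were taken from what is known of it, not for how they moved. Earlier results of these data were known when the list was made. Of the 79, 72 had a probe set. Of the 72, 0 passed in limma and 0 had an unadjusted p under 0.05. With GHSROS 23 were higher and 49 lower, with a median of -0.048, while 49.1% of all genes were lower. At or above the median level, where 62 of the 72 lay, 44.2% of all genes were higher. The groups were apart for 2 of the 72, SESN1 and ABCC4, against 5.51% of all genes. NRF2's partners and its degradation machinery gave 4 of 12 higher. MAFG and MAFF, small MAF proteins, differed by 0.0074 (SE 0.12) and -0.12 (SE 0.10), BACH1, the repressor that competes for the same elements, by 0.11 (SE 0.24), and CUL3 by 0.035 (SE 0.098). BTRC, the adaptor of another ligase for NRF2, had the lowest value of this group, -0.13 (SE 0.14). SQSTM1, the autophagy receptor p62 that binds KEAP1, read 12.37, 11.57 and 11.39 on the empty-vector arrays and 11.25, 11.35 and 12.35 on the GHSROS arrays, with the arrays that stood apart high, and differed by -0.13 (SE 0.36).

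In the wider glutathione list 7 of 21 genes were higher. SLC7A11, the cystine importer that limits glutathione supply and is a target of both NRF2 and ATF4, was among the steadiest genes of the pathway, at 11.40, 11.42 and 11.43 with the empty vector and 11.54, 11.38 and 11.45 with GHSROS, a difference of 0.038 (SE 0.083). Its partner chain SLC3A2 differed by 0.053 (SE 0.15) and GSS, glutathione synthetase, by -0.051 (SE 0.083). GPX7, a peroxidase of the endoplasmic reticulum, had the highest value, 0.19 (SE 0.12). CHAC1, which breaks glutathione down, had the lowest, -0.28 (SE 0.82), with arrays from 8.39 to 11.06.

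Of other thioredoxin genes, 4 of 12 were higher. SESN1, a sestrin, stood at 6.56, 6.64 and 6.66 on the empty-vector arrays and 6.77, 6.79 and 6.82 on the GHSROS arrays, with the groups apart and a difference of 0.17 (SE 0.079, unadjusted p 0.0641 in limma, adjusted p = 1). TXNIP, which binds and inhibits thioredoxin, read 13.49, 13.13 and 12.32 with the empty vector and 12.57, 12.92 and 13.57 with GHSROS, high on the arrays where TXN was low, and differed by 0.038 (SE 0.35). PRDX3, the mitochondrial peroxiredoxin, had the lowest value, -0.12 (SE 0.13). Among other NADPH genes 3 of 10 were higher, from -0.25 (SE 0.34) for PGLS, of the pentose phosphate pathway, to 0.077 (SE 0.13) for IDH2, mitochondrial isocitrate dehydrogenase. Among other heme, iron and detoxification genes 5 of 17 were higher, from -0.22 (SE 0.15) for HMOX2, the constitutive heme oxygenase, to 0.14 (SE 0.10) for SLC40A1, the iron exporter ferroportin. MAFK was not analysed here.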

How the data were processed

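RNA of 6 cultures was measured on Affymetrix Human Gene 1.0 arrays. The authors deposited log2 values for each probe set and used RMA, per the submitters' processing notes, with no version or steps stated there. Of 28869 probe sets, 19310 had 1 gene symbol, 1752 several and 7807 none in the platform annotation. Each gene's brightest probe set by the mean of 6 arrays was kept, which left 18377 genes. Groups were compared with limma 3.58.1 under R 4.3.3 (lmFit, then eBayes, two-sided, Benjamini-Hochberg over all genes, no block). Each difference is GHSROS minus empty vector, with moderated SEs. The fit was tested on these same values with known shifts added to the GHSROS arrays for genes drawn at random. The test required only that the shifts be returned, which a linear fit ensures. The share of shifted genes called is not given here. Array values carry no read depth, and 3 arrays per group limit the precision. If the cultures were not grown separately, the p-values reflect technical spread. Members, lists and tests were chosen with earlier results of these data known. All members are described, and of other pathway genes 11 preset names (9 measured) and the extremes of each list. Alternatives covered normalization, level filters, probe set choice, variance model, weights and omitted arrays. Promoters are RefSeq's, and those of 8 members were not used.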

Additional observations from a re-analysis of the deposited data

How the results depend on the processing

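Under each of the 16 alternatives 0 members, 0 other pathway genes and 0 of all genes passed in limma, and the smallest adjusted p of any member was 0.923. The count of members higher with GHSROS, 9 of 34, was 8 with arrays centred on their medians, 9 without both arrays that stood apart, 14 after quantile normalization, 15 with array weights and 10 to 15 with single arrays left out: 15 without empty-vector array 1, and 14 without empty-vector array 3 or GHSROS array 1. Of all genes 50.9% were higher in the deposited values, 45.8% after centring, 53.7% after quantile normalization and 54.4% with array weights. Of genes at or above the median level 44.2% were higher. Leaving out 1 array turned the sign of 25 of 34 members at least once. Only GPX1, GPX2, MGST1, TALDO1, NQO1, HMOX1, FTL and AKR1C1 kept their sign in every alternative that retained them. With the replicate number as a block, 0 members passed, 9 were higher and 223 genes of all had an unadjusted p under 0.05, against 325. Same-numbered arrays had correlations of deviations across genes of -0.714, 0.504 and -0.669. The highest were 0.831, for empty-vector array 1 with GHSROS array 3, and 0.738, for empty-vector array 3 with GHSROS array 1. The block by replicate number does not follow these matches, and no block that does was fitted. Each member had 1 probe set, so both alternatives on probe set choice returned the same values. The replicate block, the intensity trend and the level filters also leave a member's difference as it was. A sign could thus turn only in the remaining alternatives.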

Other observations

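Some pathway genes outside the members spanned more of the log2 scale over the arrays than GCLM did, and are named here after their values were seen. TFRC, the transferrin receptor that imports iron, read 11.00, 11.77 and 12.01 on the empty-vector arrays and 12.02, 12.02 and 11.02 on the GHSROS arrays, low on empty-vector array 1 and GHSROS array 3. BLVRB, a biliverdin reductase, was high on them, at 9.67, 8.99 and 8.88 on the empty-vector arrays and 8.68, 8.61 and 9.65 on the GHSROS arrays, as was the sestrin gene SESN2, at 8.28, 7.85 and 7.35 with the empty vector and 7.35, 7.63 and 8.32 with GHSROS. GGCT, which acts on products of glutathione breakdown, was low on them, at 8.99, 9.78 and 9.98 on the empty-vector arrays and 9.71, 9.81 and 8.87 on the GHSROS arrays. Their group differences were 0.095 (SE 0.35), -0.20 (SE 0.33), -0.061 (SE 0.31) and -0.12 (SE 0.33), none past the test in limma.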
